A study of Mus musculus with 21 samples.

Results

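The data described here are the peaks around 9 genes of insulin and glucagon signalling (Insr, Gcgr, Irs1, Irs2, Akt2, Foxo1, Foxo3, Ppargc1a and Trib1), out of 21883 protein-coding genes in the annotation. The 9 genes were taken as a named list and not by a rule on any measured value, but with earlier results of these data known. Each was given a window made of its RefSeq gene body and 25 kb on either side, and every peak overlapping a window was listed by position. Hepatocytes were isolated by perfusion from livers of mice at postnatal day 90, of a mixed C57/B6 and 129 strain. KO mice were Arid1a Fl/Fl; Alb-cre, so that Cre from the albumin promoter acts on the floxed alleles in hepatocytes, and WT mice were Arid1a Fl/Fl without the Cre. Chromatin immunoprecipitation with sequencing (ChIP-seq) was done for C/EBPα, a transcription factor of differentiated hepatocytes, in 2 KO and 2 WT libraries. It was done for H3K4me2, a histone mark of promoters and enhancers, in 3 KO and 3 WT libraries. ARID1A, a DNA-binding subunit of a SWI/SNF nucleosome remodeller, was mapped with a V5 antibody in 1 library from mice labelled V5-Arid1a, with no untagged library and no replicate. The labels do not say whether libraries came from separate animals, so the spread between libraries may be technical, and the removal of Arid1a cannot be checked in peak lists.

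Insulin binds its receptor INSR, which phosphorylates the adaptors IRS1 and IRS2 and so activates the kinase AKT2. AKT2 keeps the transcription factors FOXO1 and FOXO3 out of the nucleus, and in the fasted liver these factors act with the coactivator PGC-1α, encoded by Ppargc1a, on genes of glucose production. Glucagon acts through GCGR and cyclic AMP and induces Ppargc1a, and TRIB1 is a pseudokinase that directs C/EBPα to degradation.

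The sequences of 4 RefSeq promoters (GRCm38.p6, the 250 bases before the annotated start) are shown because they bear on what was seen at these genes. The Irs2 promoter is the only one of 10 promoter windows from 7 of the 9 genes overlapped by a C/EBPα region that was called in both KO lists and in no WT list. The Irs1 promoter is its counterpart in the paralogous gene, an internal Akt2 promoter carries the only C/EBPα region of that gene, and the Ppargc1a promoter had no peak of any list. Capitals mark every match, on either strand, to TTGCNNAA (a C/EBP site form), TGACG (the core of the cyclic AMP response element), TGTTTAC (a FOXO site), CACGTG (an E-box) and TGTTTTG (a form of the insulin response sequence).
Irs1, chr1:82291440-82291689, minus strand: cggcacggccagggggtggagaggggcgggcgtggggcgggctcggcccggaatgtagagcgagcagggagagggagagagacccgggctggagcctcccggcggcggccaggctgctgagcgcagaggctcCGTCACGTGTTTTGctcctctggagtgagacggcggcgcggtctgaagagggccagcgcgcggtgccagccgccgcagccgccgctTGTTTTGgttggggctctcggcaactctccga
Irs2, chr8:11008930-11009179, minus strand: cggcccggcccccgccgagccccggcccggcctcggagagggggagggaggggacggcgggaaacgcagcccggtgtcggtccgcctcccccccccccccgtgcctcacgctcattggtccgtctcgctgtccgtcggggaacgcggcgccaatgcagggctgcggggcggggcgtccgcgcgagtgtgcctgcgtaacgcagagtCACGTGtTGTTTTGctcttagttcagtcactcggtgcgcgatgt
Akt2, chr7:27605547-27605796, plus strand: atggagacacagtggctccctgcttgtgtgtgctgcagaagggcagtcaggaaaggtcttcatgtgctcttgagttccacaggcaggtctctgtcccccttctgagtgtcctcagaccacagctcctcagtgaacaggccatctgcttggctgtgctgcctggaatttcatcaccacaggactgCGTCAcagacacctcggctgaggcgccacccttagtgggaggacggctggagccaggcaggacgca
Ppargc1a, chr5:51567726-51567975, minus strand: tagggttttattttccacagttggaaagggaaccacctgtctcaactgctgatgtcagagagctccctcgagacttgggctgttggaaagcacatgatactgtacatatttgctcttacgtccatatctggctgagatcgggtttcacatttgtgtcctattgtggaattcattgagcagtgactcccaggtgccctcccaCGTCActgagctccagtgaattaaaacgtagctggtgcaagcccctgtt
In Irs1 the capitals join a TGACG match read on the other strand, the E-box and TGTTTTG, which overlap one another, and a second TGTTTTG stands closer to the start. In Irs2 they mark an E-box and TGTTTTG with 1 base between them. The longest run of letters that both promoters share is gtcacgtgtt, 10 bases long, which begins 117 bases before the start of Irs1 and 46 bases before that of Irs2. An E-box stands in 6.02% of 32851 promoters of this length, TGTTTTG in 5.56% and both in 0.295%. The E-box and TGTTTTG were added to the search after these sequences had been seen. Akt2 and Ppargc1a each hold 1 TGACG match, a motif found in 17.8% of promoters. TTGCNNAA, in 9.56% of promoters, and TGTTTAC, in 3.17%, had no match in any of the 10 promoter windows, and neither did the whole cyclic AMP response element TGACGTCA, in 1.55%. A match is a run of letters and not evidence of binding.

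C/EBPα peaks numbered 16178 and 17781 in the KO lists and 17733 and 23646 in the WT lists, and ARID1A peaks 5726. Median C/EBPα peak widths were 421 and 396 bp in the KO lists and 391 and 381 bp in the WT lists. Widths in bp given below are not corrected for this. These lists hold about 40.0% of the peak numbers they run up to, and why the others are not there is not stated, so a missing peak means that none was called or kept. The H3K4me2 lists covered 28004, 85597 and 102359 kb in KO and 48446, 91891 and 51700 kb in WT. KO replicate 3 stood apart, with 175797 peaks against 24908 to 61246 in the other H3K4me2 lists. Its median −log10 q was 1.14, against 2.42 to 4.75. Sequencing depth is unknown. Within 1 kb of a gene end, all 6 hepatocyte markers, Alb and Ttr among them, had a peak in every C/EBPα and H3K4me2 list. Of 5 markers each for endothelial, Kupffer, stellate and biliary cells, C/EBPα marked 0 or 1 in KO and in WT. H3K4me2 marked 1 to 5 endothelial markers in KO and 2 to 5 in WT, 1 or 2 Kupffer markers in KO and 0 to 2 in WT, 1 to 3 stellate markers in KO and 3 or 4 in WT, and 1 or 2 biliary markers in KO and 2 or 3 in WT. The part of these cells in the results below was not tested.

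C/EBPα had peaks around 8 of the 9 genes in every KO and WT list, and around Akt2 in all but KO replicate 1. The windows held 55 and 56 C/EBPα peaks in the KO lists, against 53 and 65 in the WT lists, and the genotypes overlapped (difference -3.5, two-sided exact permutation p = 1, with 0.333 the smallest possible for 2 against 2). Per 10000 peaks of the same list the values were 34.0 and 31.5 in KO and 29.9 and 27.5 in WT. On that scale both KO lists lay above both WT lists (difference 4.06, exact permutation p = 0.333), so the sign of the difference depended on the scale. It also turned, to 2.5 peaks, without WT replicate 2.

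Merging peaks that shared at least 1 bp gave 73 regions in the windows. A region is called kept when all 4 lists have a peak in it, lost when neither KO list and both WT lists do, gained when both KO lists and neither WT list do, and mixed otherwise. Of the 73 regions 40 were kept, 5 lost, 4 gained and 24 mixed. Across the genome 42.8% of merged regions were kept, against 54.8% here (exact Clopper-Pearson 95% interval 42.7 to 66.5, which covers counting error only). The lost regions were 5 of the 52 that both WT lists shared, or 9.62% (3.20 to 21.0), against 19.3% of such regions in the genome. The gained regions were 4 of the 50 that both KO lists shared, or 8% (2.22 to 19.2), against 5.27% in the genome. The genome's share lies inside the interval for gained and for lost regions, so neither count sets these genes apart. The lost regions numbered 8 without KO replicate 1, 9 without KO replicate 2 and 12 without WT replicate 1, and without WT replicate 2 the gained ones numbered 10. Leaving out a list relaxes the rule of each class, so these counts could hardly fall. By window, 4 of 9 genes had a lost region, against 27.1% of windows, and 4 of 8 had a gained one, against 13.4%. The windows of the 9 genes were longer (median 108 kb, against 67.2 kb over all genes) and denser in C/EBPα regions (median 6.71 per 100 kb, against 1.21).

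**Figure D1:**
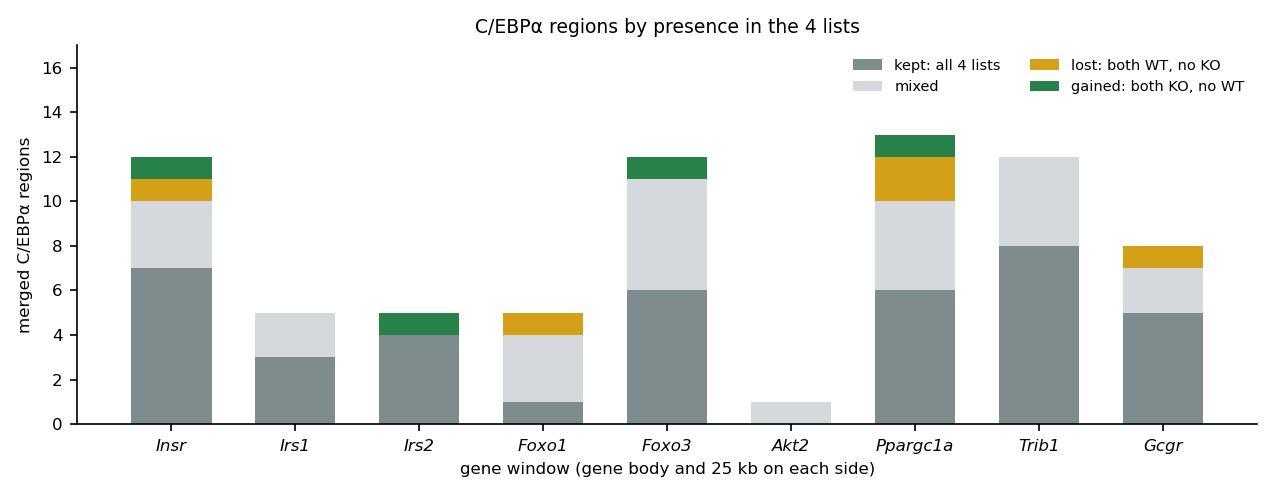
Number of merged C/EBPα regions in each gene's window, stacked by class (grey kept, pale grey mixed, yellow lost, green gained). Ppargc1a has the most regions (13), in the longest window (712 kb), and Akt2 the fewest (1). The 4 gained regions stand at Insr, Irs2, Foxo3 and Ppargc1a.

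The receptor gene Insr, on chromosome 8 (3150922 to 3279649), held 12 C/EBPα regions, 11 of them inside the gene. The KO lists had 10 and 10 peaks, against 8 and 11 in the WT lists, and the WT lists lay on both sides of the KO ones. Of the regions 7 were kept, 1 was lost, 1 was gained and 3 were mixed. The lost region, chr8:3220138-3220542, was 373 and 382 bp wide in the WT lists, with no peak in KO. It had an H3K4me2 peak in 1 KO list and 3 WT lists. Within the next 2 kb stand a pair of mixed regions (chr8:3221013-3221304 and chr8:3221659-3222172), each with a peak in both KO lists and in WT replicate 2 alone, and with H3K4me2 in all 6 lists. The first of them overlaps an ARID1A peak of 571 bp (chr8:3220995-3221565), wider than 96.6% of the ARID1A list. The KO lists thus lacked the first region of this cluster, and WT replicate 1 lacked the next 2. The gained region, chr8:3234513-3234927, was 411 and 340 bp wide in the KO lists and carried H3K4me2 in 2 KO lists and 1 WT list. The other 3 ARID1A peaks of Insr (chr8:3232609-3232882, chr8:3249918-3250200 and chr8:3256598-3256883) each lay on a kept C/EBPα region.

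The glucagon receptor gene Gcgr, on chromosome 11 (120529185 to 120538989), had kept C/EBPα regions next to the lower end of its gene body. That end is called its start throughout. The promoter window of Gcgr lies inside the gene body (chr11:120530477-120530726) and no C/EBPα region overlaps it. The KO lists had 5 and 7 peaks in the 25 kb window of Gcgr and the WT lists 7 and 7, so KO replicate 2 equalled both WT lists. A kept region overlaps the gene-body start (chr11:120528897-120529263), with widths of 364 and 333 bp in KO and 254 and 354 bp in WT. Further kept regions stand 1109, 6186 and 10667 bp before the start, and the 2 nearer ones each carry an ARID1A peak (chr11:120527750-120528057 and chr11:120522679-120522871). A region 488 bp inside the gene had a peak in KO replicate 2 and both WT lists. The 5 kept regions were narrow, with mean width percentiles within their lists of 15.6 to 48.9. The lost region of the window, chr11:120507636-120507978, lies 21207 bp away and is nearest to Slc25a10, a mitochondrial dicarboxylate carrier. This window also contains Mcrip1, Ppp1r27 and P4hb, so its distal peaks cannot be assigned to Gcgr.

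The adaptor genes Irs1 and Irs2 differed in their ARID1A peaks, with 0 at Irs1 and 4 at Irs2. At Irs1 (chromosome 1, 82233105 to 82291439) the KO lists had 4 and 4 C/EBPα peaks and the WT lists 3 and 5. Its 3 kept regions stand 2665 bp before the start and 11036 and 52711 bp inside the gene, and no region there was lost or gained. At Irs2 (chromosome 8, 10984681 to 11008929) the KO lists had 5 and 5 peaks and the WT lists 4 and 4. Irs2 was the only one of the 9 genes with both KO lists above both WT lists, a pattern seen in 6.33% of 12820 windows (difference 1, exact permutation p = 0.333, Benjamini-Hochberg adjusted p = 1 over those windows). The difference was also 1 with flanks of 10 kb, but 0 with flanks of 50 kb. The extra peak is the gained region chr8:11008751-11009152, which spans the Irs2 start and 223 of the 250 promoter bases printed above, the shared E-box run among them. It was 402 bp wide in KO replicate 1 and 295 bp in KO replicate 2, and its mean width percentile of 28.9 places it among the narrower peaks of those lists. H3K4me2 covered it in 2 KO lists and 3 WT lists. An ARID1A peak of 429 bp stands 731 bp before the start (chr8:11009660-11010088), beside the gained region but not on it and on no other C/EBPα region. The 4 kept regions of Irs2 lie 3136 and 12011 bp before the start and 10086 and 18700 bp past the gene's other end. The last, chr8:10965241-10965981, was 739 and 672 bp wide in KO and 380 and 692 bp in WT, and it carried H3K4me2 in all 6 lists. ARID1A peaks lie on 3 of these 4 regions.

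**Figure D2:**
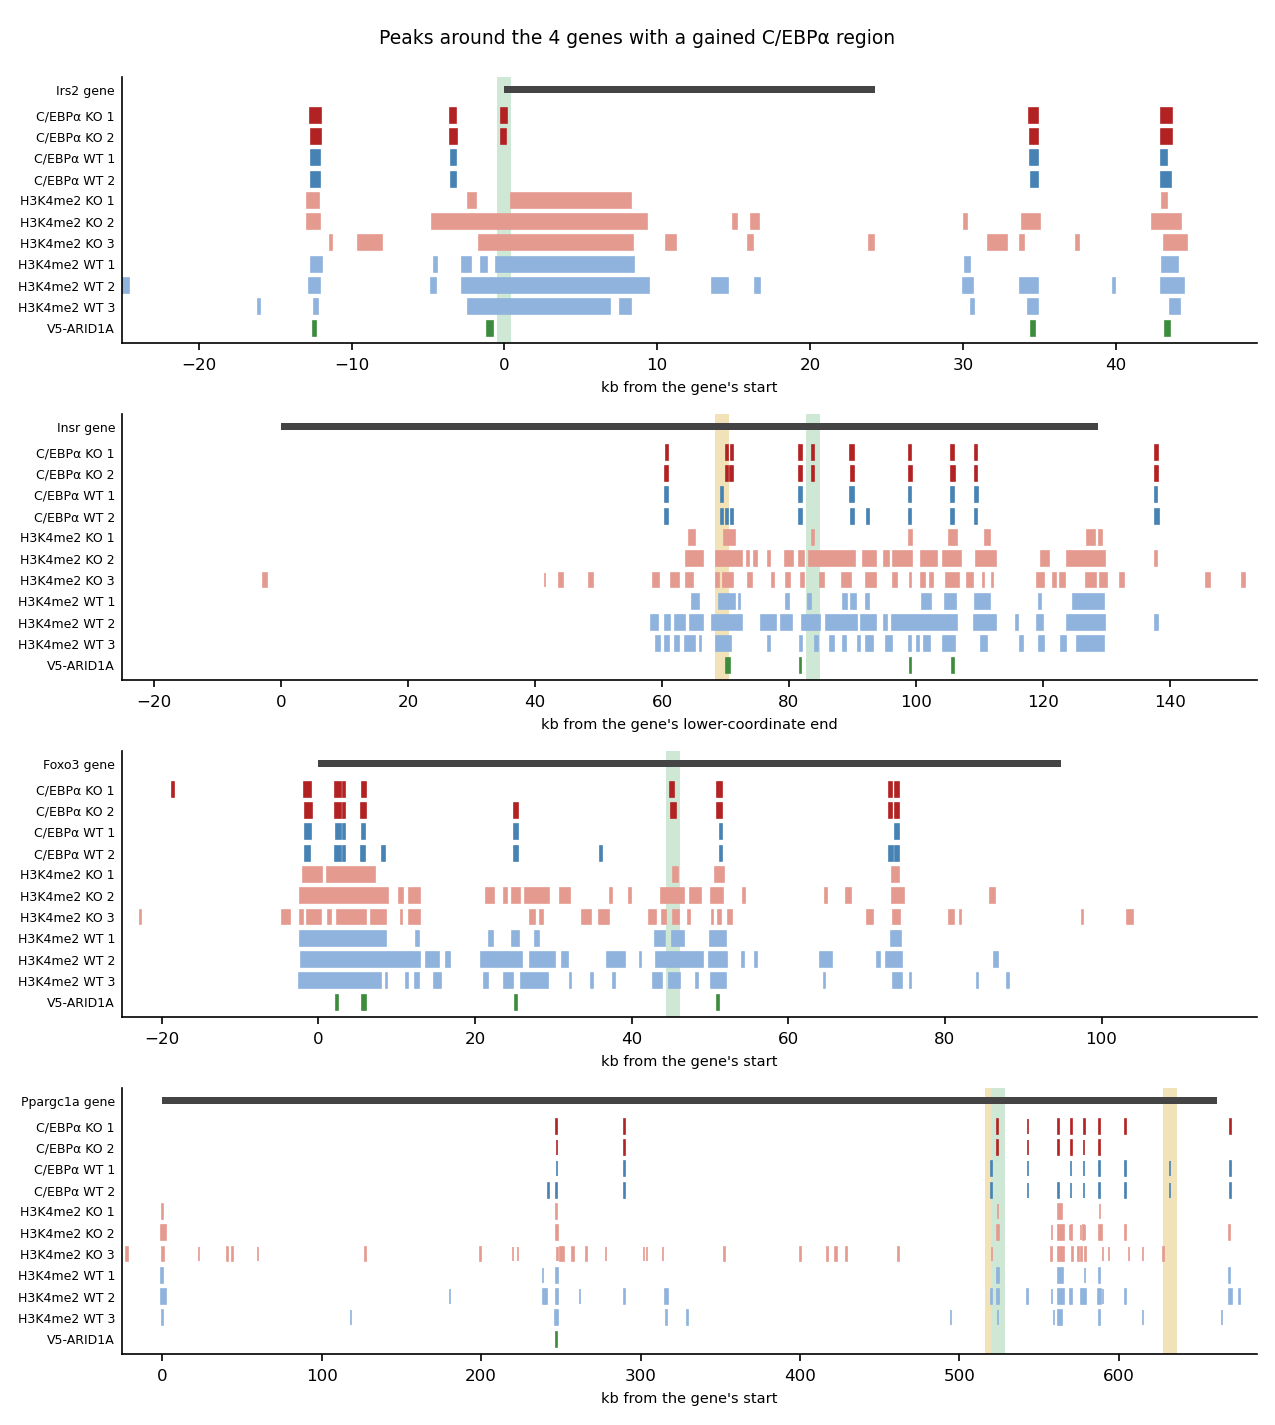
Peaks in the windows of the 4 genes with a gained C/EBPα region, by distance from the start of the gene body (from the lower-coordinate end for Insr), with 1 row per list (red KO, blue WT, pale red and pale blue H3K4me2, green ARID1A). Green bands, drawn wider than the region, mark gained regions and yellow bands lost ones, and a gained region stands over the Irs2 start with no peak in either WT row.

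The kinase gene Akt2, on chromosome 7 (27591552 to 27640826), had a single C/EBPα region in its window. It was called in 0 and 1 peaks of the KO lists, against 1 and 1 of the WT lists, so KO replicate 2 matched WT. The region (chr7:27605554-27605867) covers 243 of the 250 bases of the internal promoter printed above. It was 258 bp wide in KO replicate 2 and 308 and 293 bp in the WT lists. H3K4me2 covered that promoter in 2 KO and 3 WT lists, and the first Akt2 promoter in 3 KO and 3 WT lists. No ARID1A peak fell in the window. It also contains 2310022A10Rik, Ttc9b and Map3k10, so H3K4me2 outside the gene body cannot be assigned to Akt2.

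Around Foxo1 there was little C/EBPα, and around Foxo3 much. Foxo1, on chromosome 3 (52268337 to 52350109), had 1 and 2 peaks in the KO lists against 3 and 3 in the WT lists. It was the only one of the 9 genes with both KO lists below both WT lists, against 14.9% of windows (difference -1.5, exact permutation p = 0.333, Benjamini-Hochberg adjusted p = 1). The difference at Foxo1 was also -1.5 with flanks of 50 kb, but -0.5 with flanks of 10 kb. Its 1 kept region, chr3:52343235-52343692, was 392 and 420 bp wide in KO and 377 and 326 bp in WT. Its lost region, chr3:52367871-52368275, lies 17762 bp past the gene and was 405 and 290 bp wide in the WT lists. The only Foxo1 peak near the start stands 429 bp before it and was called in KO replicate 2 alone. The ARID1A peak of this gene, chr3:52290830-52291149, lies on no C/EBPα region and carried H3K4me2 in 1 KO and 2 WT lists.

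Foxo3, on chromosome 10 (42181845 to 42276695), had 10 and 9 C/EBPα peaks in the KO lists against 7 and 10 in the WT lists, and the genotypes overlapped. A cluster of 4 kept regions surrounds its start, at 849 bp before it and 2180, 3136 and 5463 bp inside the gene. The region before the start, chr10:42277544-42278454, was 788 and 889 bp wide in KO and 831 and 609 bp in WT, and every region of the cluster carried H3K4me2 in all 6 lists. ARID1A peaks stand on 2 of the 4. The gained region of Foxo3, chr10:42231007-42231818, lies 44877 bp inside the gene, was 505 and 702 bp wide in the KO lists and carried H3K4me2 in all 6 lists. Beside it lies the only H3K4me2 bin of the 9 windows that was lost by genotype, described with that mark below.

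Ppargc1a, on chromosome 5 (51454249 to 52115853), had 10 and 8 C/EBPα peaks in the KO lists and 10 and 12 in the WT lists, so KO replicate 1 equalled the lower WT list. Its 13 regions were 6 kept, 2 lost, 1 gained and 4 mixed. They lay in a window of 712 kb, the longest of the 9, at 1.83 regions per 100 kb. The gained region chr5:51591407-51592261 was 802 and 827 bp wide in the KO lists, and the lost region chr5:51595413-51596209, which begins 3151 bp further on, was 536 and 797 bp wide in the WT lists. Their mean width percentiles, 94.7 and 90.1, were the highest among the 4 gained and the 5 lost regions of the 9 genes. H3K4me2 covered the gained region in 2 KO and 3 WT lists, and the lost one in 1 KO and 1 WT list. The other lost region, chr5:51483800-51484090, was narrow in the WT lists (291 and 273 bp) and had no H3K4me2 peak in any list. No C/EBPα, ARID1A or H3K4me2 peak overlapped the promoter printed above, whereas H3K4me2 marked the far upper end of the annotated gene in all 6 lists. The ARID1A peak of the gene, chr5:51868113-51868625, lies on a kept region that was 626 and 464 bp wide in KO and 530 and 612 bp in WT, with H3K4me2 in all 6 lists.

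Trib1, on chromosome 15 (59648654 to 59657099), had the densest C/EBPα of the 9 windows, at 20.5 regions per 100 kb. The KO lists had 10 and 10 peaks and the WT lists 10 and 12, and no region was lost or gained. Its 8 kept regions included the 2 with the highest mean width percentile within their lists among kept regions of the 9 genes, 97.0 and 95.6. The first, chr15:59652395-59653397 inside the gene, was 913 and 771 bp wide in KO and 933 and 968 bp in WT, with H3K4me2 in all 6 lists. The second, chr15:59658351-59659177 past the upper end, was 799 and 802 bp wide in KO and 815 and 803 bp in WT, and it carried an ARID1A peak of 487 bp and H3K4me2 in 1 KO and 3 WT lists. Another kept region spans the lower end of the gene (chr15:59647958-59648848) together with the second ARID1A peak (chr15:59648376-59648747).

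**Figure D3:**
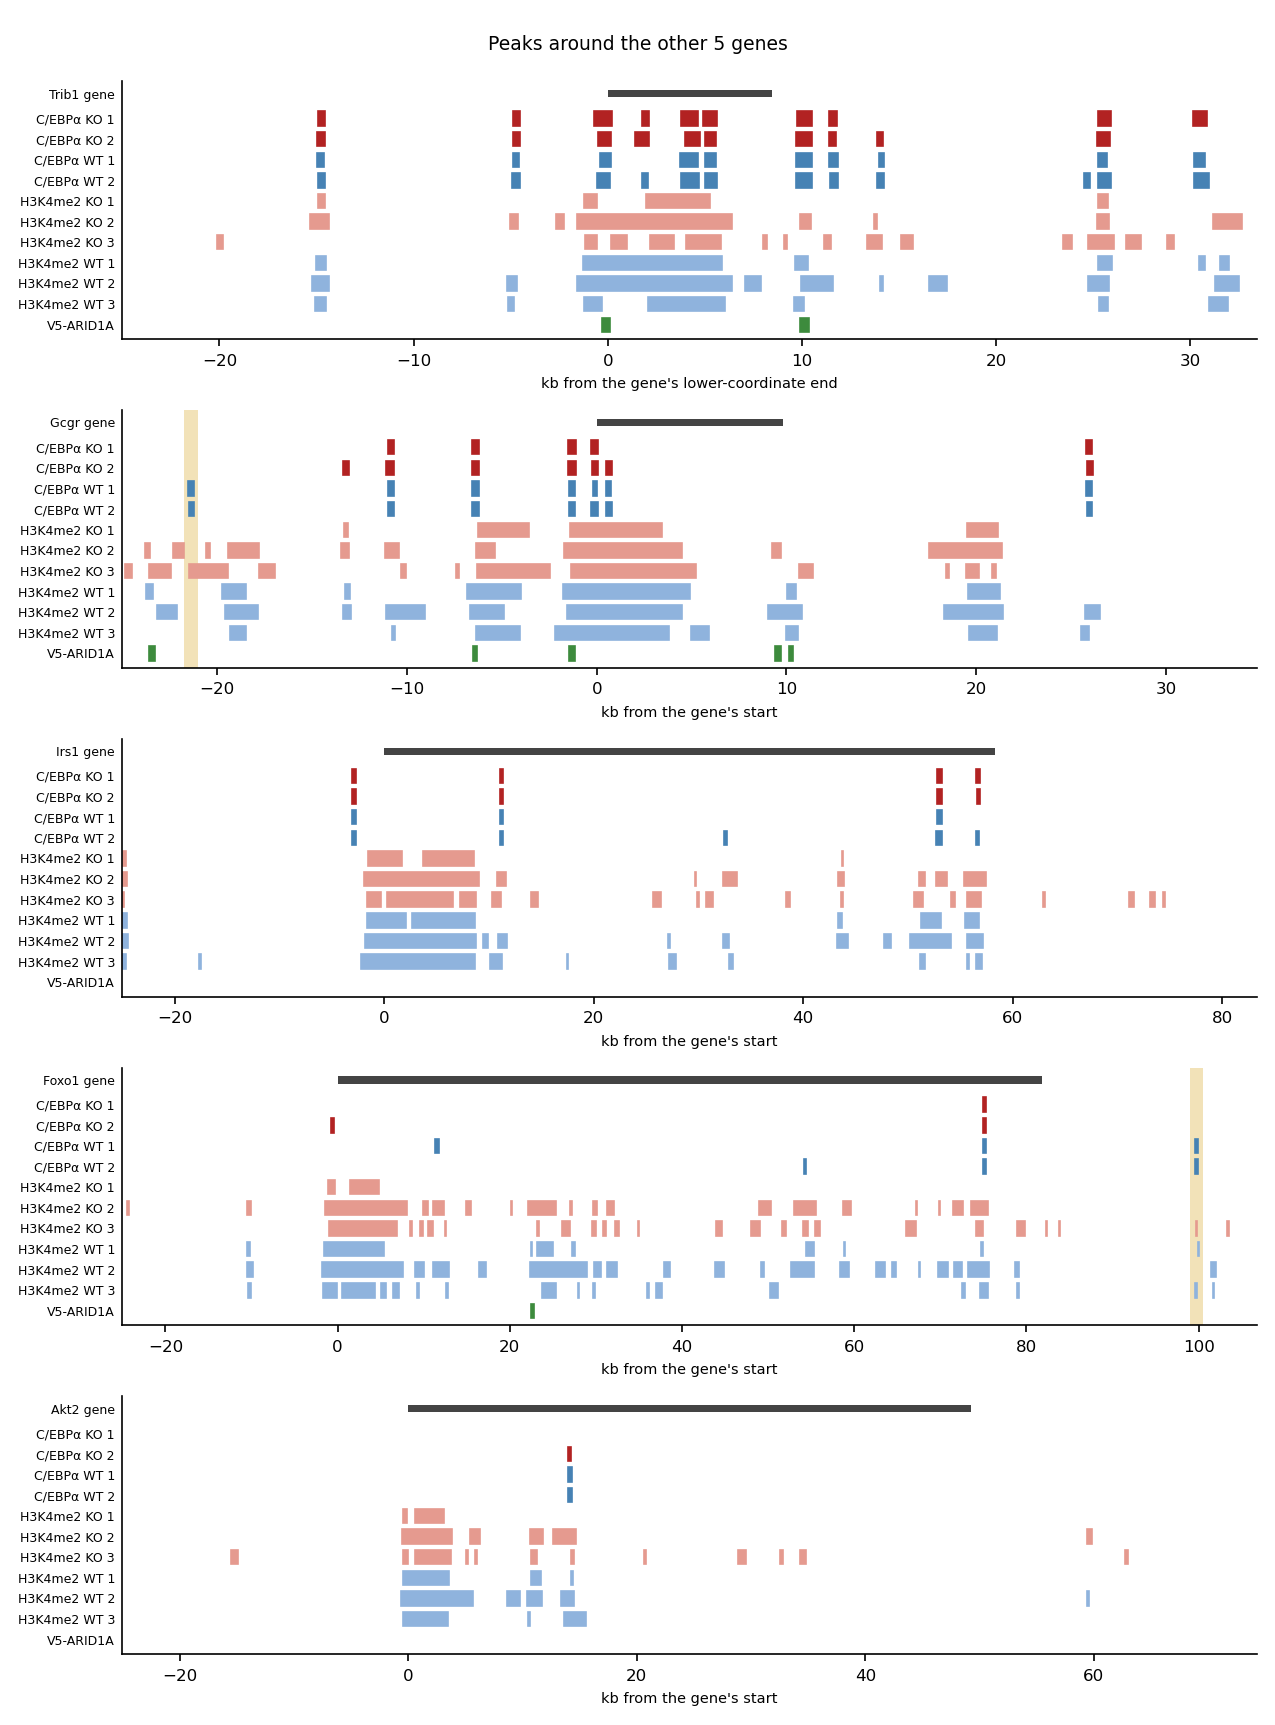
Peaks in the windows of the other 5 genes, drawn in the same way as for the genes with gained regions. Trib1 has C/EBPα peaks in all 4 rows across and beside the gene, Akt2 has 1 region, and yellow bands mark the lost regions of Gcgr and Foxo1.

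**Figure D4:**
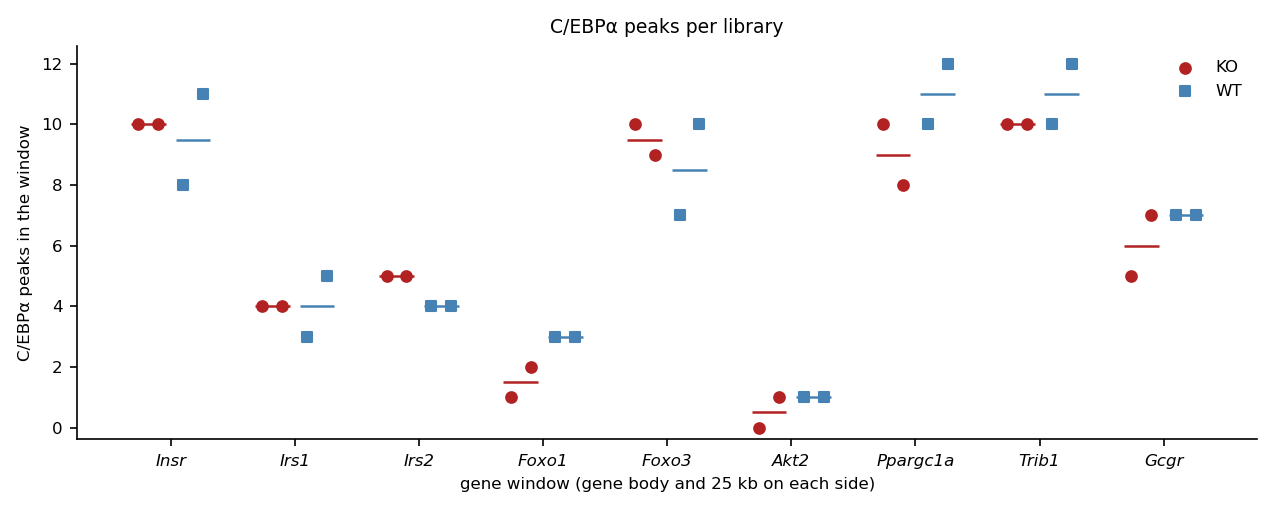
Number of C/EBPα peaks per library in each gene's window, with 1 point per library (red circles KO, blue squares WT) and a line at each mean (n = 2). The genotypes do not overlap at Irs2, where KO is higher (5 and 5 against 4 and 4), and at Foxo1, where KO is lower (1 and 2 against 3 and 3).

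ARID1A peaks numbered 21 and stood in 7 of the 9 windows, against 20.2% of all windows, with Irs1 and Akt2 as the exceptions. The windows of the 9 genes were longer than most and held more C/EBPα regions (median 8, against 1 over all windows). Per merged C/EBPα region the shares lay closer, with an ARID1A peak on 16 of 73 (21.9%), against 17.2% in the genome. Gcgr had 5, Insr, Irs2 and Foxo3 had 4 each, Trib1 had 2, and Foxo1 and Ppargc1a had 1 each. Of the 21 peaks 15 overlapped a C/EBPα region shared by the WT lists, or 71.4% (47.8 to 88.7), close to the 70.6% of the whole list. ARID1A peaks lay on 14 of the 40 kept regions (35%, 20.6 to 51.7), against 30.9% of kept regions in the genome. They lay on 2 of the 24 mixed regions (7.23% in the genome), on 0 of the 5 lost ones (6.08% in the genome) and on 0 of the 4 gained ones (8.01% in the genome). With so few regions, a count of 0 leaves an upper 95% limit of 52.2% for lost and 60.2% for gained regions. H3K4me2 peaks overlapped 10, 20 and 12 of the 21 ARID1A peaks in the KO lists and 17, 19 and 17 in the WT lists, and the genotypes overlapped.

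H3K4me2 covered parts of all 9 windows in every library. In total it covered 62.3, 182 and 154 kb in KO replicates 1, 2 and 3, against 110, 231 and 119 kb in WT replicates 1, 2 and 3. The means were 133 ± 62.6 and 153 ± 67.1 kb (SD, n = 3 each), a difference of -20.5 kb that lay within the spread of either genotype (exact permutation p = 0.7, with 0.1 the smallest possible). The sign turned without KO replicate 1 (14.7 kb) or WT replicate 2 (18.1 kb). KO replicate 3, the library that stood apart, was the only one to cover more than the WT library of its number. With the same replicate number, KO covered less than WT at 9 of 9 genes for number 1 and at 8 of 9 for number 2, and at 1 of 9 for number 3. Per 100000 kb covered by the same list, the windows held 223, 213 and 150 kb in KO and 227, 251 and 231 kb in WT. On that scale every KO library lay below every WT library (difference -41.0 kb, exact permutation p = 0.1). Without KO replicate 3 the difference was -18.5 kb (exact permutation p = 0.2), in an alternative added after seeing the data.

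**Figure D5:**
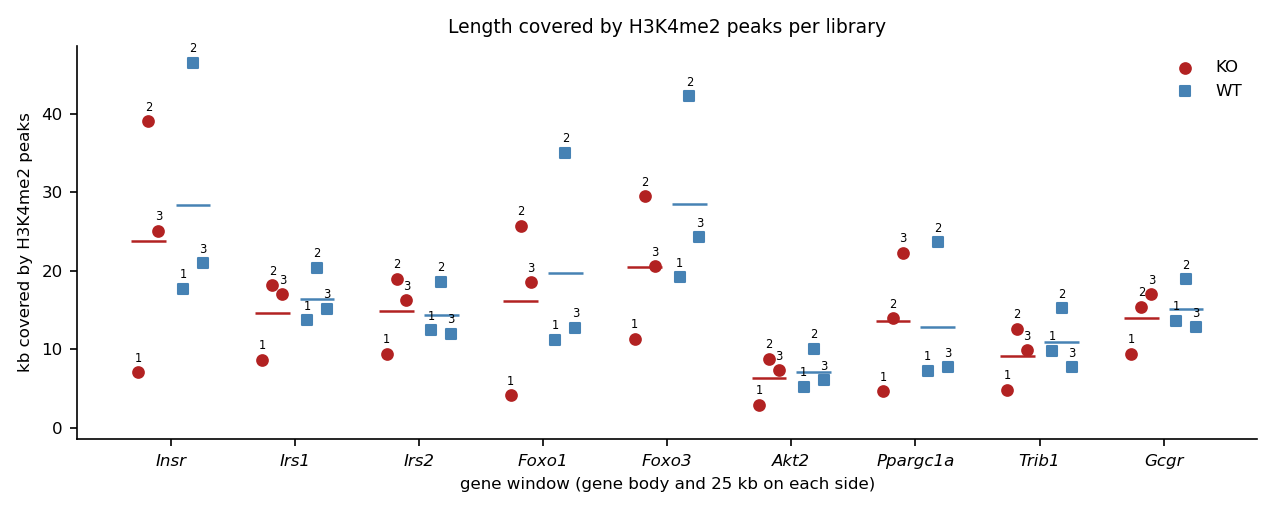
Length covered by H3K4me2 peaks in each gene's window, in kb, with 1 point per library labelled by replicate number (red circles KO, blue squares WT) and a line at each mean (n = 3). The genotypes overlap at all 9 genes, and replicate 2 has the highest WT value at each of them.

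No gene's H3K4me2 coverage separated the genotypes, against 0.048% of 20816 windows with every KO library higher and 0.682% with every KO library lower. At Insr it was 7.04, 39.0 and 25.1 kb in KO and 17.7, 46.5 and 20.9 kb in WT. At Gcgr it was 9.39, 15.4 and 16.98 kb in KO and 13.6, 18.9 and 12.8 kb in WT. KO replicate 1, the list with the least coverage (28004 kb), was below every WT library at all 9 genes, the receptors among them. KO replicates 2 and 3 were not, at any of the 9. Irs2 had 9.44, 19.0 and 16.2 kb in KO and 12.4, 18.6 and 12.0 kb in WT. Foxo3 had 11.3, 29.5 and 20.6 kb in KO and 19.1, 42.2 and 24.3 kb in WT. Foxo3 had the largest mean deficit in KO of the 9 genes, and it kept that sign when any 1 library was left out (-12.8 to -1.26 kb). Foxo3 was also the only one of the 9 with less coverage in KO within all 3 same-number pairs, against 9.12% of windows (difference -8.10 kb, exact sign-flip p = 0.25, the smallest that 3 pairs allow), in a comparison added after seeing the data. More coverage in KO within all 3 pairs was seen at 0 of the 9, against 2.11% of windows. Akt2, the least covered, had 2.91, 8.78 and 7.30 kb in KO and 5.20, 10.04 and 6.05 kb in WT. The median difference over the 9 genes was -1.81 kb, against 0.198 kb over all windows tested. Neither value is scaled for window length or coverage. The windows of the 9 genes were longer (median 108 kb, against 67.2 kb) and held more bins of 1 kb marked in all 6 lists (median 4, against 1). The 2 medians therefore do not set these genes apart. No window in the genome had an adjusted p under 1 for either readout, and no unadjusted p can fall below 0.333 for C/EBPα or 0.1 for H3K4me2.

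The H3K4me2 domains at gene starts were present in both genotypes and varied in how far a single peak extended. At the Foxo3 start the widest peak was 2.50, 11.1 and 1.76 kb in KO and 10.99, 15.2 and 10.5 kb in WT. KO replicates 1 and 3 thus lay far below WT, KO replicate 2 lay between the WT values, and KO was lower in each same-number pair. At the Foxo1 start it was 0.819, 9.56 and 7.81 kb in KO and 6.98, 9.32 and 3.75 kb in WT. At the Gcgr start it was 4.86, 6.22 and 6.57 kb in KO and 6.72, 6.06 and 6.01 kb in WT, which overlapped closely. At the upper end of Insr it was 1.21, 5.90 and 1.60 kb in KO and 4.87, 5.90 and 4.18 kb in WT. At Irs2 it was 7.81, 14.04 and 10.1 kb in KO and 9.06, 12.3 and 9.29 kb in WT, the genotypes again overlapping. A peak's extent depends on where the caller splits a domain.

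On a grid of 1 kb bins, counted as marked where at least 500 bp lie in peaks, 71 bins of the 9 windows were marked in all 3 WT lists and 41 in all 3 KO lists. Of the 71, 1 was marked in no KO list, against 2.01% in the genome, and of the 41, 0 were marked in no WT list, against 0.175%. The lost bin lies inside Foxo3 (chr10:42233001-42234000), close to the gained C/EBPα region. Peaks covered 0, 0 and 393 bp of it in KO and 735, 584 and 926 bp in WT. It was called only under the minimum of 500 bp, and not when 1 bp or the whole bin was asked for. The lost bins numbered 15 without KO replicate 2 and 5 without WT replicate 1 or 3, and the gained ones 1 without KO replicate 1 or 2. These counts could only stay or rise, because leaving out a list relaxes the rule. At the 73 C/EBPα regions themselves, H3K4me2 peaks stood over 31, 57 and 41 in the KO lists and 43, 64 and 43 in the WT lists. They stood over 22 regions in all 6 lists and over 4 in none.

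A wider list of 56 genes of the same pathways gave the setting. C/EBPα regions lay in the windows of 48, and 36 had a kept region, 17 a lost one and 4 a gained one, while 26 had an ARID1A peak. Of the 56 genes, 42 had a region in both WT lists, the base for lost regions, and 40 had one in both KO lists, the base for gained regions. Among all windows with such a region, 27.1% had a lost and 13.4% a gained region, and 20.2% of all windows had an ARID1A peak. The windows of the 56 genes held a median of 3 C/EBPα regions, against 1 over all windows. Both KO lists lay above both WT lists at 4 of the 48 genes and below at 8, against 6.33% and 14.9% of windows, and no gene separated the genotypes in H3K4me2 coverage. Both WT lists shared 124 regions around these genes, of which 26 were lost, and both KO lists shared 108, of which 4 were gained, counts near the genome's shares of 19.3% and 5.27%. The most lost regions were at Pde4b, a phosphodiesterase that breaks down cyclic AMP, where 6 were lost and the KO lists held 2 and 2 peaks against 9 and 13 in the WT lists. Mtor, a kinase downstream of insulin, Pde4d, another cyclic AMP phosphodiesterase, and Socs3, an inhibitor of cytokine and insulin receptor signalling, had 2 lost regions each. The adaptor genes Gab1 and Grb10 had 1 each. Gained regions stood at Adcy9, an adenylyl cyclase that makes cyclic AMP, at the coactivator gene Ep300 and at the phosphodiesterase gene Pde3b. Pde3b also had 1 lost region, and 3 peaks in every C/EBPα list. Ep300 had 3 and 1 peaks in the KO lists and 1 and 2 in the WT lists, so the genotypes overlapped at both. Adcy9 had 8 and 8 C/EBPα peaks in the KO lists against 5 and 5 in the WT lists, with 5 ARID1A peaks in its window.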

How the data were processed

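Peak lists for 11 libraries were used: C/EBPα and H3K4me2 from KO and WT hepatocytes, and V5-ARID1A. Per the submitters' processing notes the build was mm10 and the tools were MACS2 2.0.10.20131216, HOMER, Picard and Bowtie2 2.2.3. The C/EBPα and V5 lists hold positions alone. The deposited H3K4me2 lists also give, in the column order of a broad peak list, a score, a fold enrichment and −log10 p and q per peak. These are the authors' values, and −log10 q was used here only to choose and describe peaks. Per the labels, H3K4me2 libraries were prepared with another kit and run on another sequencer than those for C/EBPα and V5, so targets were compared only by overlap.

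Gene bodies came from RefSeq (GRCm38.p6, 21883 protein-coding genes on the chromosomes), and the promoters from its sequence table. Exons and introns were not used here. Analysis used Python 3.11.15, NumPy 2.4.6, pandas 2.3.3, SciPy 1.17.1 and Matplotlib 3.10.9, on functions tested on simulated lists. C/EBPα peak numbers and H3K4me2 kb per library were compared by two-sided exact permutation over libraries, with Benjamini-Hochberg adjustment over all windows for single genes. Width percentiles are within a list. All 9 genes are named. Of the 56 further genes those with lost or gained regions nearest to them are named, at most 6 of each, by number and then symbol. The 9 genes and all lists were chosen with earlier results of these data known. Replicate numbers were checked as pairs by the correlation of deviations from group means. For H3K4me2 it was 0.573, 0.644 and 0.226 for numbers 1, 2 and 3, and from -0.617 to 0.350 between replicates of unlike number. For C/EBPα it was 0.0257. The main tests were unpaired for both targets. Pairing by number was used in the replicate block and, for H3K4me2, in the same-number comparisons. Alternatives were other flanks (10 and 50 kb), overlaps (100 bp), width, −log10 q and bin thresholds, lists of equal size, scaling, and leaving out each replicate. The 10 input samples were not used here.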

Additional observations from a re-analysis of the deposited data

How the results depend on the processing

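Counts of called regions depended on which peaks were used. Lost C/EBPα regions numbered 5, and 2 with the 16178 widest peaks of every list, 2 with peaks at least 395 bp wide, 3 with flanks of 10 kb and 9 with flanks of 50 kb. Leaving out 1 library gave 6 to 12 lost regions, the most without WT replicate 1, with 8 without KO replicate 1 and 9 without KO replicate 2. Gained regions numbered 4, and 7 with the equal number of widest peaks and 4 to 10 with 1 library left out, the most without WT replicate 2. Kept regions numbered 40, and 18 at 395 bp or wider and 40 to 46 with 1 library left out. Each class asks for presence or absence in every list, so leaving 1 out relaxes the rule. The direction of these changes was thus nearly fixed in advance, and a rise alone says nothing of robustness. The KO minus WT difference in C/EBPα peaks, -3.5, turned to 5.5 at 395 bp or wider, 9.5 with equal numbers and 4.06 per 10000 peaks, each with an exact permutation p of 0.333, and ran from -9.5 to 2.5 with 1 library left out. Over whole lists KO peaks were wider (medians 421 and 396 bp, against 391 and 381 bp in WT). The part of this in the turn at 395 bp was not tested. The H3K4me2 difference, -20.5 kb, ran from -45.2 to 18.1 kb with 1 library left out, turning positive without KO replicate 1 (14.7 kb) or WT replicate 2 (18.1 kb). With the replicate block the differences were -3.5 for C/EBPα (exact p = 1) and -20.5 kb for H3K4me2 (exact sign-flip p = 0.5). For single genes the block was run for H3K4me2 only. It leaves each difference as it is, and no sign-flip p of 3 pairs can fall below 0.25. The block could therefore not change a call. The 1 lost H3K4me2 bin became 0 at or above the pooled median −log10 q, with 24908 peaks per list, and with bins marked from 1 bp or only when whole. Leaving out 1 library gave 1 to 15 lost bins, the most without KO replicate 2 and 5 without WT replicate 1 or 3, and 0 to 1 gained bins. Here too the relaxed rule allowed no fall. With V5 peaks at least as wide as their median, 9 ARID1A peaks remained, 6 of them on C/EBPα regions of both WT lists. Single genes were recomputed only with other flanks, with 1 library left out and, for H3K4me2, with the replicate block. The width, −log10 q, equal-size and scaling alternatives were not run for them. Among the settings that were run, single genes with a difference other than 0 changed sign only when 1 library was left out: C/EBPα peaks from -0.5 to 2.5 at Foxo3 and -1 to 2 at Insr, and H3K4me2 kb from -1.99 to 0.948 at Akt2, -8.31 to 4.17 at Foxo1, -2.69 to 1.10 at Gcgr, -12.3 to 4.40 at Insr, -3.60 to 1.17 at Irs1, -1.50 to 3.27 at Irs2, -3.56 to 6.15 at Ppargc1a and -3.57 to 0.340 at Trib1. Irs1, with a difference of 0 in C/EBPα peaks, ran from -1 without WT replicate 1 to 1 without WT replicate 2. The cause of these shifts was not tested. C/EBPα peaks at Irs2 (1 to 1) and Foxo1 (-2 to -1) kept their sign with any 1 library left out. This had to hold, because the genotypes do not overlap at these genes, and it says nothing of robustness. The difference at Irs2 was 0 with flanks of 50 kb, and that at Foxo1 was -0.5 with flanks of 10 kb. Depth is unknown, and 2 or 3 libraries per genotype limit every comparison.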

Other observations

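Choosing peaks by width changed which regions were called. With the 16178 widest peaks of every C/EBPα list, all 4 gained regions (Insr, Irs2, Foxo3 and Ppargc1a) were still called gained, and 2 of the 5 lost ones (Insr and chr5:51595413-51596209 in Ppargc1a) were still called lost. That choice removes no peak from KO replicate 1 and most from WT replicate 2, the shortest and the longest list, so it bears unequally on gained and lost regions. With only peaks at least 395 bp wide, the gained regions of Foxo3 and Ppargc1a and the lost region chr5:51595413-51596209 of Ppargc1a were still called. The gained regions at Insr and Irs2 then had 1 KO peak left and became mixed.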
